A study of Saccharomyces cerevisiae with 12 samples.

Results

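Additivity between deletion of HEL2 and loss of U34 tRNA modification was examined in 5PSeq reads of budding yeast, using all 12 of the 12 libraries of the series. The 4 strains formed a factorial design with 3 libraries each. The strains were ncs2Δelp6Δhel2Δ (ncs2Δ::HIS3MX, elp6Δ::URA3 and hel2Δ::LEU2), ncs2Δelp6Δ (ncs2Δ::HIS3MX and elp6Δ::URA3), hel2Δ (hel2Δ::LEU2) and wild type, all labelled as BY4741 MATa cells with his3Δ1, leu2Δ0 and ura3Δ0, grown in rich YPD medium at 30 °C. Wild type alone was also labelled met15Δ0, and the markers that replaced the deleted genes went with the deletions, so that neither can be told apart from the strain comparisons they go with. The labels number the replicates but do not say that they were separate cultures, and p-values therefore measure only the spread between these libraries. The interaction was the log2 fold change of ncs2Δelp6Δhel2Δ over ncs2Δelp6Δ minus that of hel2Δ over wild type. It is 0 where the effects of the deletions add on the log2 scale, above 0 where the triple mutant had more reads than the sum of the single effects gives, and below 0 where it had fewer. It was described for 31 pathway lists and 4 lists taken from the study.

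Hel2 is an E3 ubiquitin ligase that recognises collided ribosomes and marks them for ribosome-associated quality control (RQC), which splits the stalled ribosome and can send its mRNA to decay. Ncs2 belongs to the Urm1 pathway, which adds the sulfur of the wobble uridine U34 in a few tRNAs, and Elp6 to the Elongator complex, which starts the side chain at U34 in a larger group of tRNAs. Cells without both modifications decode some codons slowly and activate starvation and proteotoxic stress programmes. 5PSeq captures mRNA fragments with a 5′ phosphate, most of which are made by decapping or cleavage, so a read count here reflects both how much of an mRNA there is and how much of it is being degraded. These cannot be told apart without RNA-seq, which was not used here, and a bulk sample likewise cannot separate fewer expressing cells from less RNA per cell.

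Between 104202 and 415323 reads fell on the 6302 genes of a library (median 215412), and 3378 genes (53.6%) passed the filter for low counts. The median tested gene had 24.8 reads per library, and the median standard error of an interaction was 0.45 on the log2 scale. HEL2 had 5 and 89 reads in all libraries of ncs2Δelp6Δhel2Δ and ncs2Δelp6Δ, against 8 and 48 in hel2Δ and wild type. NCS2 had 2 reads in ncs2Δelp6Δhel2Δ and 0 in ncs2Δelp6Δ, against 15 in hel2Δ and 18 in wild type. ELP6 kept 10 reads in ncs2Δelp6Δhel2Δ and 4 in ncs2Δelp6Δ, against 20 in hel2Δ and 20 in wild type. Each deleted gene thus had fewer summed reads in the strains that lack it than in the others, in counts not scaled to library totals. MET17, the gene of the met15Δ0 allele, had 62, 39 and 38 reads in ncs2Δelp6Δhel2Δ, ncs2Δelp6Δ and hel2Δ, against 28 in wild type, which is not the pattern of a gene absent from wild type alone. Markers of MATa cells summed to between 107 and 611 reads per library and those of MATα cells to between 5 and 30.

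At the level of single genes, LYS2 was the 1 gene whose reads departed from additivity after adjustment (0.0296% of genes tested, edgeR's quasi-likelihood test with Benjamini-Hochberg adjustment). Without adjustment, 328 genes (9.71%) had p under 0.05, of which 259 (7.67%) lay above the sum of the single effects and 69 (2.04%) below it. The median interaction of all genes was 0.08, and it was 0.02 after upper-quartile scaling and 0.00 when libraries were scaled by their totals, so values of this size depend on the scaling. Against this background the strain effects differed widely in how many genes they moved. Deletion of HEL2 changed 192 genes (5.68%) in cells without U34 modification and 3 genes (0.0888%) in cells with it. Loss of U34 modification changed 492 genes (14.6%) in cells without HEL2 and 1015 genes (30%) in cells with it. The triple mutant differed from wild type in 374 genes (11.1%). These counts depend on a threshold and on a spread estimated over all strains together. They do not by themselves show that an effect differs between backgrounds. They also depended on single libraries of ncs2Δelp6Δhel2Δ, since without its replicate 2 the numbers were 389 genes for HEL2 deletion and 122 for U34 modification loss, and without its replicate 3 they were 35 and 649.

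The direction in which genes moved upon loss of U34 modification was mostly shared between cells without and with HEL2, but the falls were smaller without HEL2. Across the 3378 genes, the log2 effect of U34 modification loss without HEL2 (ncs2Δelp6Δhel2Δ over hel2Δ) and with HEL2 (ncs2Δelp6Δ over wild type), which use no library in common, had a Pearson r of 0.79. This describes the genes of these libraries, and genes are not independent replicates. The effects had an SD across genes of 0.69 without HEL2 and 0.97 with HEL2. The 563 genes called lower in ncs2Δelp6Δ than in wild type (16.7%) had a median log2 effect of −0.83 without HEL2, against −1.63 with HEL2, and 253 of them were also called lower in ncs2Δelp6Δhel2Δ than in hel2Δ. The 452 genes called higher in ncs2Δelp6Δ (13.4%) had medians of 0.71 without HEL2 and 1.07 with HEL2. Genes chosen by their own contrast are pushed outward in it, so the same comparison was made for genes chosen in the other libraries. The 275 genes called lower in ncs2Δelp6Δhel2Δ than in hel2Δ (8.14%) had a median of −1.17 without HEL2, the contrast that chose them, and still −1.95 with HEL2. In contrast, the 217 genes called higher there (6.42%) had 1.14 without HEL2 and 0.99 with HEL2. Thus, whichever libraries chose the genes, falls were larger with HEL2, whereas the order of the rises depended on the choice.

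**Figure D1:**
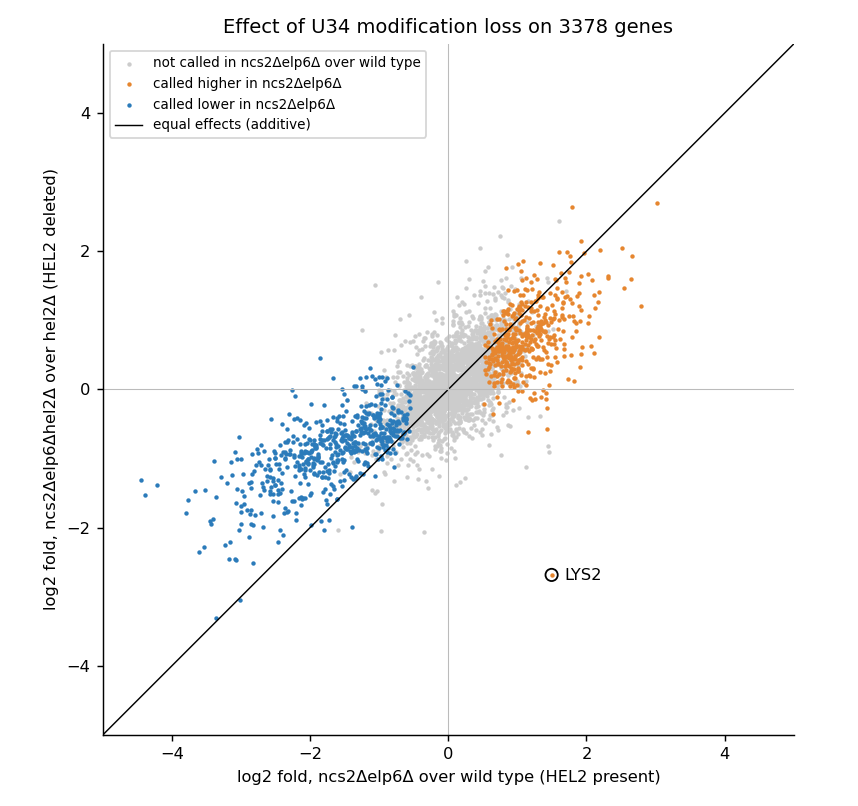
Log2 effect of U34 modification loss on each of 3378 genes without HEL2 (vertical axis, ncs2Δelp6Δhel2Δ over hel2Δ) and with HEL2 (horizontal axis, ncs2Δelp6Δ over wild type). Genes called lower in ncs2Δelp6Δ lie mostly above the line of equal effects, with a median of −0.83 without HEL2 and −1.63 with HEL2, and LYS2 lies far below it.

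The 259 genes above additivity at an unadjusted p under 0.05 were largely such falls. Their median effect of U34 modification loss was −0.74 without HEL2 and −1.95 with HEL2, and 223 of them were called lower in ncs2Δelp6Δ than in wild type. Their mean log2 CPM (read counts scaled to library size by TMM) was 7.78, 7.35 and 8.11 in the ncs2Δelp6Δhel2Δ libraries and between 6.56 and 6.91 in ncs2Δelp6Δ, against 8.17 to 8.48 in hel2Δ and 8.25 to 8.58 in wild type. The triple mutant therefore stood between ncs2Δelp6Δ and the strains with intact U34 modification, and its second replicate, the deepest library with 415323 reads, was the lowest of its 3. The genes were chosen by this interaction, so their levels are a description. The effect of HEL2 deletion had an r of only 0.24 across genes between cells without U34 modification (SD 0.56) and cells with it (SD 0.39).

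Among the pathway lists, lysine synthesis lay lowest and histidine synthesis highest relative to additivity, and most other lists lay close to the median of all genes. The medians ran from −0.89 for the 9 lysine genes to 0.82 for the 4 histidine genes tested. In total 19 lists had a median above 0 and 12 below, and 10 had one beyond 0.2 in either direction. In 11 of the 31 lists the sign of the median did not turn whichever of the 12 libraries was omitted. No list held a gene called for the interaction except lysine synthesis, against 0.0296% of all genes, and no p is given for a list as a whole. Over the 31 medians, the U34 effect without and with HEL2 had an r of 0.70, as a description.

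**Figure D2:**
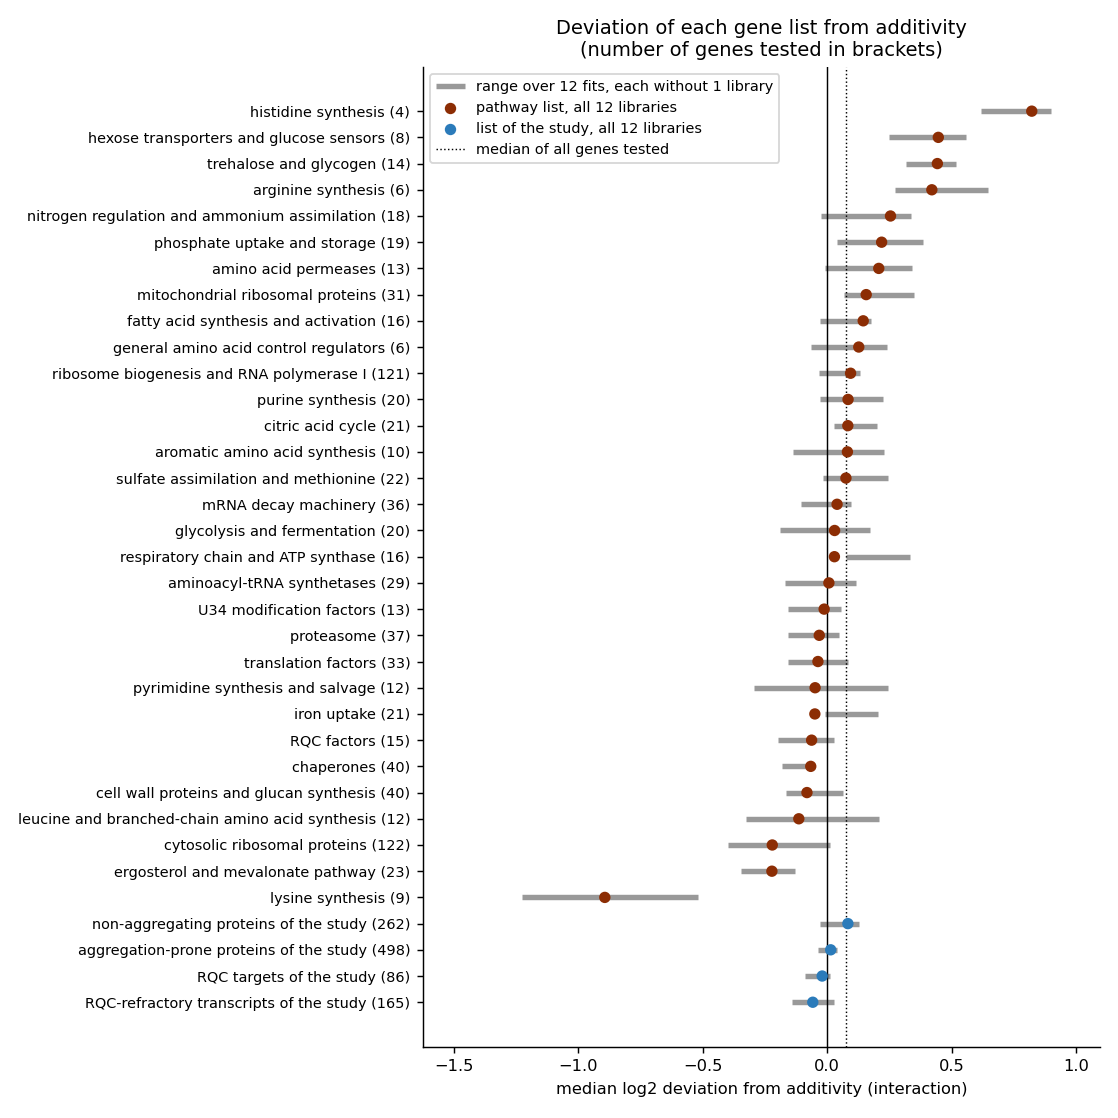
Median log2 interaction of each gene list (points, number of genes tested in brackets), with the range over 12 fits that each left out 1 library (grey bars) and the median of all genes tested (dotted line). Lysine synthesis lay between −1.23 and −0.52 and histidine synthesis between 0.62 and 0.90, while most other ranges were near 0 or crossed it.

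**Figure D3:**
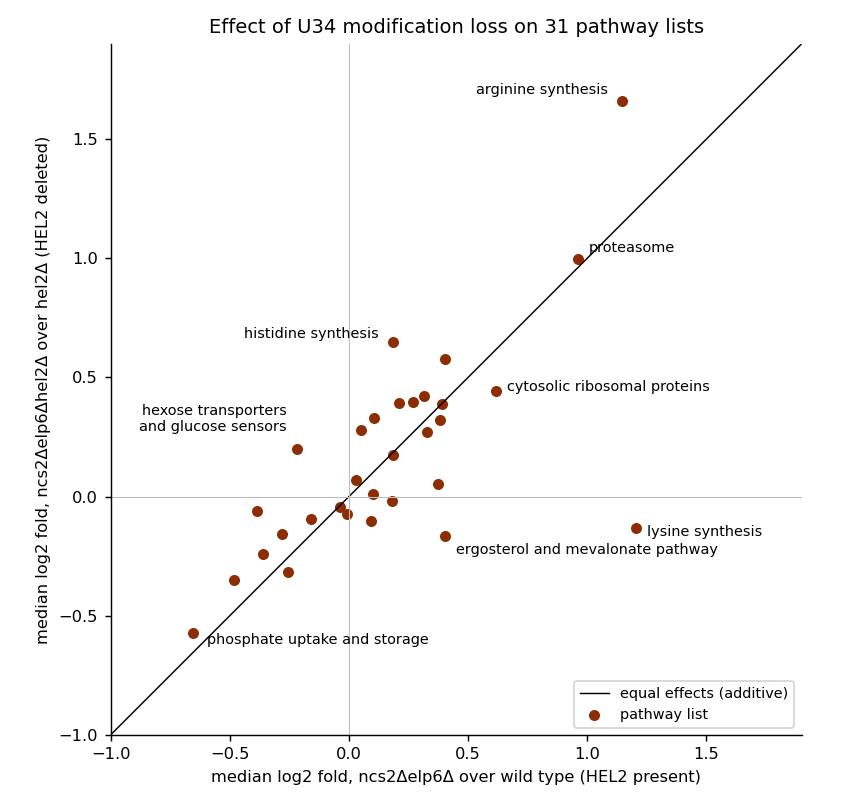
Median log2 effect of U34 modification loss on each of 31 pathway lists without HEL2 (vertical axis) and with HEL2 (horizontal axis). Distance above or below the line of equal effects is the difference between these medians, which need not equal the median interaction of the list. The medians lay far apart for lysine synthesis (−0.13 without and 1.204 with HEL2, median interaction −0.89). They were close for the proteasome (1.00 and 0.96, median interaction −0.03).

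The lysine pathway makes lysine from 2-oxoglutarate by way of α-aminoadipate. Its first step is catalysed by the homocitrate synthases Lys20 and Lys21, α-aminoadipate reductase is Lys2, and Lys14 is the transcription factor that activates the pathway with α-aminoadipate semialdehyde as coinducer. The list as a whole was higher in either mutant than in wild type, but not higher still when the mutations were combined. Its mean log2 CPM was 6.91 ± 0.20 in ncs2Δelp6Δhel2Δ, 7.41 ± 0.11 in ncs2Δelp6Δ and 6.93 ± 0.17 in hel2Δ, against 6.58 ± 0.21 in wild type (SD, n = 3 each). All triple mutant libraries were below all ncs2Δelp6Δ libraries and within or near the range of hel2Δ. The median log2 fold change over wild type was 0.47 in the triple mutant, where the sum of the single effects gave 1.42. The median interaction was −1.23 without replicate 1 of wild type and −0.52 without replicate 1 of hel2Δ. The interaction was below 0 for 7 of the 9 genes, against 1468 of all 3378 genes tested. It had an unadjusted p under 0.05 for 4 of the 9, all below 0, against 2.04% of all genes.

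LYS2 (YBR115C, chromosome II, 469748 to 473926 on assembly R64) departed furthest. It had 68.2, 16.9 and 42.7 CPM in ncs2Δelp6Δhel2Δ, 515, 395 and 513 CPM in ncs2Δelp6Δ and 211, 165 and 251 CPM in hel2Δ, against 180, 198 and 120 CPM in wild type. LYS2 thus rose in ncs2Δelp6Δ (log2 fold change 1.50, adjusted p = 9.39e-05) but fell in the triple mutant below every library of the other strains. Its log2 fold change was −3.82 over ncs2Δelp6Δ (adjusted p = 2.49e-08) and −2.69 over hel2Δ (adjusted p = 4.34e-05), and the interaction was −4.18 (standard error 0.44, adjusted p = 4.46e-06, all from edgeR). The interaction of LYS2 was called in all 12 fits without 1 library, with values between −4.49 and −3.55. The reads left were 7, 8 and 10 in the ncs2Δelp6Δhel2Δ libraries. The labels give no LYS2 allele for any strain, and whether the triple mutant strain carries an altered LYS2 was not tested.

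The other members of the lysine list leaned the same way without passing the test. LYS20 had 205, 204 and 235 CPM in ncs2Δelp6Δhel2Δ, 396, 209 and 299 CPM in ncs2Δelp6Δ and 132, 208 and 136 CPM in hel2Δ, against 78.8, 99.1 and 84.5 CPM in wild type, and its interaction was −1.28 (unadjusted p = 0.00321, adjusted p = 0.202). LYS12, which encodes homoisocitrate dehydrogenase, had 39, 61.1 and 29.9 CPM in ncs2Δelp6Δhel2Δ, all below the 96.1, 139 and 109 CPM in ncs2Δelp6Δ, and an interaction of −1.39 (adjusted p = 0.348). LYS21 and ARO8, of which ARO8 encodes an aminotransferase shared with the aromatic pathway, were near additivity with interactions of −0.07 and 0.03. LYS14 lay on the other side with 0.71. It had 273, 221 and 427 CPM in ncs2Δelp6Δhel2Δ and 188, 166 and 198 CPM in ncs2Δelp6Δ, against 559, 461 and 347 CPM in hel2Δ and 320, 509 and 528 CPM in wild type. The regulator was thus lowest in ncs2Δelp6Δ, where it fell compared to wild type (log2 −1.28, adjusted p = 0.000498), while the ncs2Δelp6Δhel2Δ libraries overlapped those of hel2Δ and wild type. LYS14, LYS21 and ARO8 were named after their values were seen.

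Without LYS2, the median interaction of the remaining 8 lysine genes was −0.85, and it stayed below 0 in all 12 fits without 1 library (−1.04 to −0.42, nearest 0 without replicate 1 of hel2Δ). Their mean log2 CPM was 7.08 ± 0.15 in ncs2Δelp6Δhel2Δ, 7.22 ± 0.10 in ncs2Δelp6Δ and 6.83 ± 0.16 in hel2Δ, against 6.48 ± 0.20 in wild type (SD, n = 3 each). These 8 genes were thus raised in the triple mutant over wild type, to about the level of ncs2Δelp6Δ, and the departure of their mean level from the sum was −0.50 ± 0.18 (standard error). Low counts limit the list, since with at least 10 reads required in every library, which removes LYS2, its median was 0.025.

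**Figure D4:**
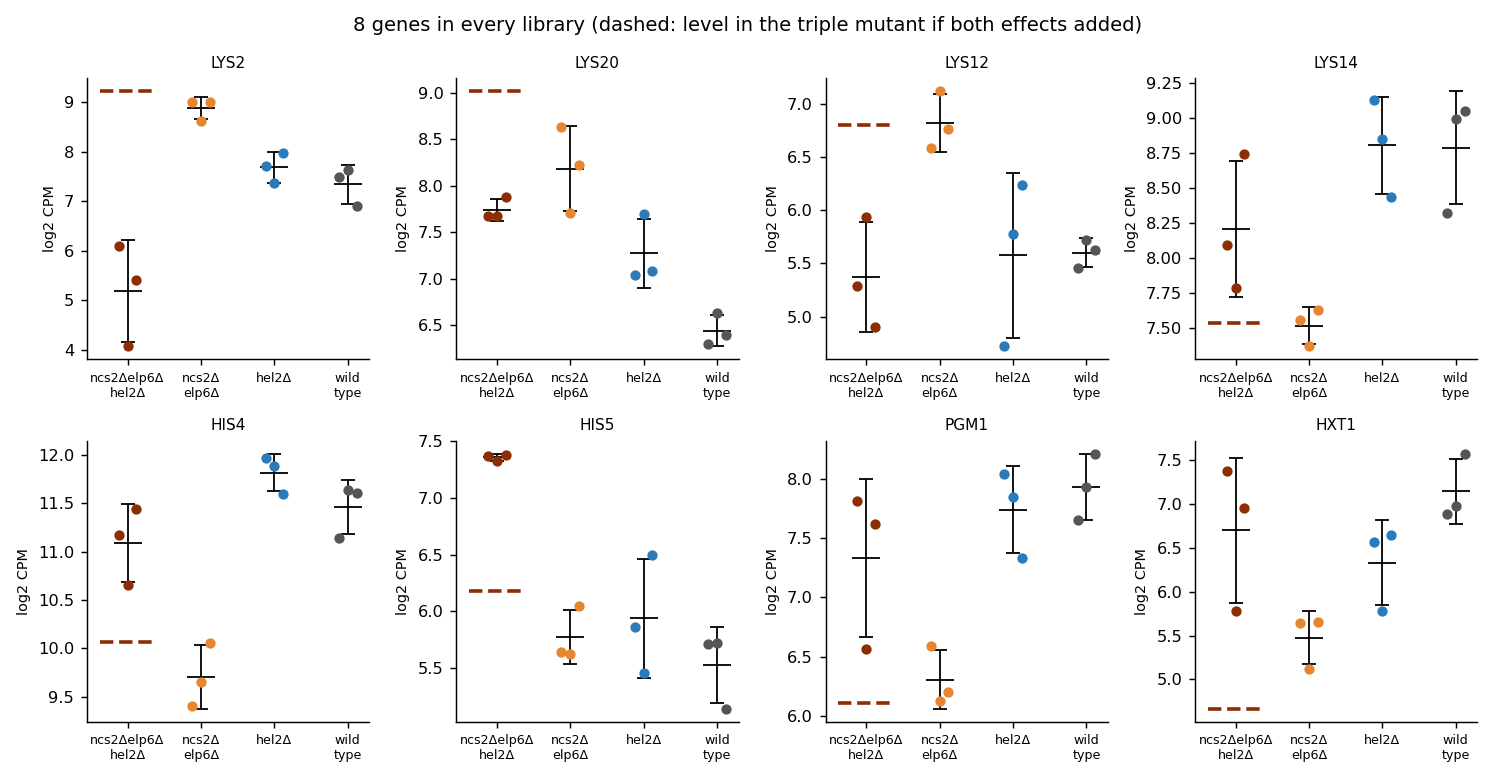
Log2 CPM of 8 genes in each library (points), with the mean and SD of each strain (bars, n = 3) and the level of the triple mutant expected if the single effects added (dashed). LYS2, LYS20 and LYS12 lay below the additive level in all 3 ncs2Δelp6Δhel2Δ libraries, and LYS14, HIS4, HIS5, PGM1 and HXT1 lay above it in all 3.

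Histidine synthesis departed in the opposite direction. The pathway shares its control by the transcription factor Gcn4 with lysine and arginine synthesis, and the marker gene HIS3 was left out of the list. The mean log2 CPM of its 4 tested genes was 8.62 ± 0.14 in ncs2Δelp6Δhel2Δ, 7.63 ± 0.08 in ncs2Δelp6Δ and 8.17 ± 0.11 in hel2Δ, against 7.84 ± 0.19 in wild type (SD, n = 3 each). All triple mutant libraries were above those of every other strain, and the departure of the mean level from the sum was 0.67 ± 0.16 (standard error). Of the 4 genes, 3 rose in ncs2Δelp6Δhel2Δ compared to ncs2Δelp6Δ (4.68% of all genes rose there). None was called in hel2Δ compared to wild type, where only 0.0888% of all genes were.

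The members reached this in different ways. HIS4, a trifunctional enzyme of the pathway, had 2300, 1613 and 2781 CPM in ncs2Δelp6Δhel2Δ, 676, 808 and 1068 CPM in ncs2Δelp6Δ and 4000, 3773 and 3095 CPM in hel2Δ, against 2251, 3171 and 3121 CPM in wild type. Its fall in ncs2Δelp6Δ (log2 −1.74, adjusted p = 1.25e-05) was not a call without HEL2 (−0.70, adjusted p = 0.0592). HIS5, histidinol-phosphate aminotransferase, had 166, 160 and 167 CPM in ncs2Δelp6Δhel2Δ, 50, 49.4 and 66 CPM in ncs2Δelp6Δ and 58, 43.9 and 90.4 CPM in hel2Δ, against 52.6, 52.8 and 35.2 CPM in wild type. HIS5 was therefore high only where both U34 modification and HEL2 were missing, and it rose there over ncs2Δelp6Δ (log2 1.57, adjusted p = 0.00138) and over hel2Δ (log2 1.26, adjusted p = 0.00654). HIS1, which starts the pathway, did so too, with 0.89 (adjusted p = 0.0119) and 0.78 (adjusted p = 0.0215). None of the interactions passed adjustment, with 1.04 for HIS4 (adjusted p = 0.258), 1.07 for HIS5 (adjusted p = 0.432), 0.61 for HIS1 (adjusted p = 0.587) and −0.02 for HIS7, which was named after its value was seen. The list's median fell to 0.33 when genes with low counts were kept.

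Arginine synthesis rose with both mutations and came close to, or above, the sum. The median log2 fold change of its 6 tested genes over wild type was 2.53 in ncs2Δelp6Δhel2Δ, where the sum of single effects gave 2.11, and the median interaction was 0.42 (0.27 to 0.65 without 1 library). In ncs2Δelp6Δhel2Δ, 5 of the 6 genes rose over ncs2Δelp6Δ and 5 rose over hel2Δ, against 4.68% and 6.42% of all genes. ARG4, argininosuccinate lyase, had 1832, 2135 and 1738 CPM in ncs2Δelp6Δhel2Δ, 1230, 1270 and 827 CPM in ncs2Δelp6Δ and 337, 219 and 307 CPM in hel2Δ, against 140, 126 and 141 CPM in wild type. The strains did not overlap for ARG4, which was named after its values were seen, and its interaction of −0.34 (unadjusted p = 0.329) showed no departure beyond the error. ARG8, acetylornithine aminotransferase, was the member furthest above additivity at 1.50 (adjusted p = 0.177). It had 205, 145 and 359 CPM in ncs2Δelp6Δhel2Δ and 57.7, 58.1 and 93.2 CPM in ncs2Δelp6Δ, against 506, 362 and 417 CPM in hel2Δ and 285, 436 and 387 CPM in wild type, so that it was low in the strains without U34 modification while other arginine genes were high. Without ARG8 the list's median was 0.16, and with at least 10 reads in every library it was −0.34, so that its departure rested on few genes.

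Other amino acid lists were near additivity or mixed. The 12 genes of leucine and branched-chain synthesis had a median of −0.11, which turned to 0.21 without replicate 1 of hel2Δ. LEU1, isopropylmalate isomerase, had 195, 158 and 201 CPM in ncs2Δelp6Δhel2Δ, 969, 918 and 1022 CPM in ncs2Δelp6Δ and 216, 154 and 171 CPM in hel2Δ, against 438, 423 and 535 CPM in wild type. LEU1 was thus low in both strains with the hel2Δ::LEU2 allele whatever their U34 state, and its rise upon loss of U34 modification (log2 1.06, adjusted p = 0.000119) was not seen without HEL2 (−0.02, adjusted p = 0.968). The interaction of LEU1 was −1.08 (unadjusted p = 0.00155, adjusted p = 0.177). The isoform gene LEU9 moved the other way, with 1.37 (adjusted p = 0.177) and a fall in ncs2Δelp6Δ of −2.63 that was −1.26 without HEL2. In aromatic synthesis, with a median of 0.08 over 10 genes, ARO3, TRP4 and TRP2 lay above the sum by 1.23, 1.19 and 1.72 at an unadjusted p under 0.05, and none passed adjustment.

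**Figure D5:**
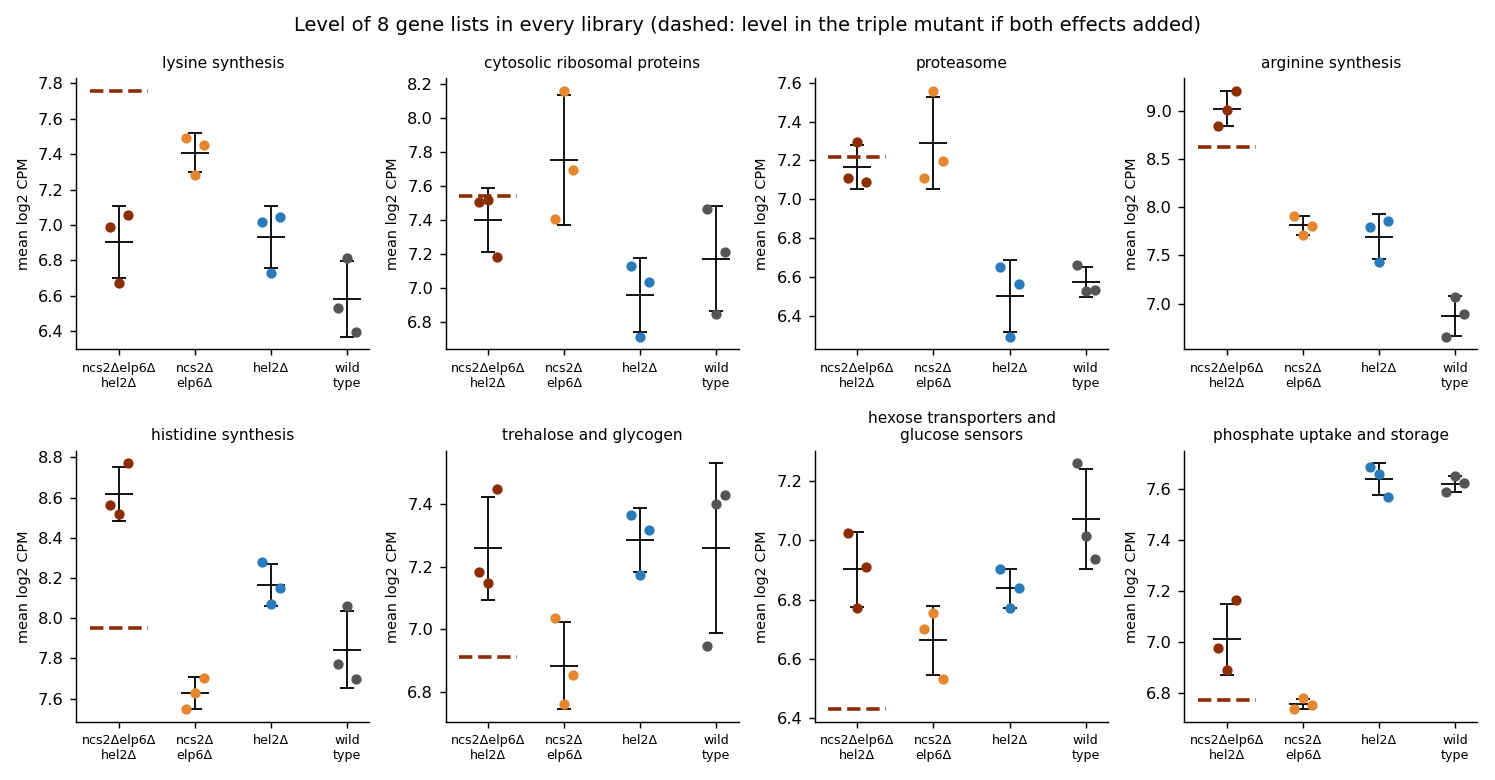
Mean log2 CPM of 8 gene lists in each library (points), with the mean and SD of each strain (bars, n = 3) and the level of the triple mutant expected if the single effects added (dashed). The ncs2Δelp6Δhel2Δ libraries lay below the dashed line for lysine synthesis, above it for arginine and histidine synthesis, trehalose and glycogen, hexose transporters and phosphate, and on both sides of it for the proteasome.

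Of the lists of carbon metabolism, trehalose and glycogen and the hexose transporters lay above additivity, with their lowest mean level in ncs2Δelp6Δ, whereas glycolysis and fermentation (20 genes) had a median interaction of 0.03 (−0.19 to 0.17 without 1 library) and the citric acid cycle (21 genes) one of 0.08, the value of all genes. The mean log2 CPM of the 14 trehalose and glycogen genes was 7.26 ± 0.16 in ncs2Δelp6Δhel2Δ, 6.88 ± 0.14 in ncs2Δelp6Δ and 7.29 ± 0.10 in hel2Δ, against 7.26 ± 0.27 in wild type (SD, n = 3 each). In ncs2Δelp6Δ compared to wild type 5 of the 14 genes fell, against 16.7% of all genes, and in ncs2Δelp6Δhel2Δ compared to hel2Δ none did, against 8.14%. The median interaction was 0.44 (0.32 to 0.52 without 1 library), yet the departure of the mean level, 0.35 ± 0.21 (standard error), was not far beyond its error. PGM1, a phosphoglucomutase, had 224, 94.9 and 196 CPM in ncs2Δelp6Δhel2Δ, 96.1, 69.7 and 73.8 CPM in ncs2Δelp6Δ and 264, 230 and 161 CPM in hel2Δ, against 201, 244 and 296 CPM in wild type. NTH1, the neutral trehalase, showed the same order with 185, 249 and 248 CPM in ncs2Δelp6Δhel2Δ and 154, 119 and 128 CPM in ncs2Δelp6Δ, against 219 to 253 CPM in hel2Δ and 206 to 284 CPM in wild type. The triple mutant thus overlapped hel2Δ and wild type for both genes, and for NTH1 it was above all ncs2Δelp6Δ libraries (log2 0.81, adjusted p = 0.0283). Their interactions were 1.15 and 0.85 (adjusted p = 0.304 for each), and UGP1, which makes UDP-glucose, was below additivity at −0.69 (adjusted p = 0.497).

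The 8 tested hexose transporters and glucose sensors had a median interaction of 0.45 (0.25 to 0.56 without 1 library). Their mean log2 CPM was 6.90 ± 0.13 in ncs2Δelp6Δhel2Δ, 6.66 ± 0.12 in ncs2Δelp6Δ and 6.84 ± 0.07 in hel2Δ, against 7.07 ± 0.17 in wild type (SD, n = 3 each). Every triple mutant library was above the ncs2Δelp6Δ libraries, and every hel2Δ library was below those of wild type. HXT1, a low-affinity glucose transporter and the member with the lowest p, had 166, 54.8 and 124 CPM in ncs2Δelp6Δhel2Δ, 50, 34.9 and 50.5 CPM in ncs2Δelp6Δ and 94.9, 54.8 and 100 CPM in hel2Δ, against 118, 126 and 190 CPM in wild type. Its fall upon U34 modification loss (log2 −1.67, adjusted p = 0.00113) was 0.17 without HEL2 (adjusted p = 0.804), and the interaction was 1.84 (adjusted p = 0.177). The glucose sensor SNF3 was lower in both contrasts, by −1.02 without HEL2 (adjusted p = 0.0389) and −1.60 with HEL2 (adjusted p = 0.000932). Only 8 of 22 listed genes passed the filter, and with at least 10 reads in every library the list's median was 0.048.

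Phosphate uptake and storage was the list with the largest share of genes that fell in ncs2Δelp6Δ compared to wild type, and its mean level departed from the sum by 0.24 ± 0.09 (standard error). The mean log2 CPM was 7.01 ± 0.14 in ncs2Δelp6Δhel2Δ, 6.76 ± 0.02 in ncs2Δelp6Δ and 7.64 ± 0.06 in hel2Δ, against 7.62 ± 0.03 in wild type (SD, n = 3 each), so that the effect of U34 modification loss was −0.63 without HEL2 and −0.86 with HEL2. Of 19 genes, 5 fell in ncs2Δelp6Δhel2Δ compared to hel2Δ and 10 fell in ncs2Δelp6Δ compared to wild type (8.14% and 16.7% of all genes), with medians of −0.57 and −0.66. The high-affinity transporter gene PHO84 had 19.5, 27.4 and 25.6 CPM in ncs2Δelp6Δhel2Δ and 19.2, 26.2 and 27.2 CPM in ncs2Δelp6Δ, against 300.4, 208 and 251 CPM in hel2Δ and 302, 211 and 247 CPM in wild type. PHO84, named after its values were seen, was therefore additive within its error (interaction 0.06, standard error 0.46, unadjusted p = 0.891). In contrast, VTC1 of the polyphosphate synthase and the acid phosphatase gene PHO5 had smaller effects without HEL2, of −0.73 and −1.09 (adjusted p = 0.0858 and 0.0676) against −1.80 and −2.78 with HEL2 (adjusted p = 3.95e-05 and 5.35e-05). PHO4, the transcription factor that activates the pathway, went the other way. It had 400, 333 and 214 CPM in ncs2Δelp6Δhel2Δ, 819, 604 and 586 CPM in ncs2Δelp6Δ and 295, 340 and 377 CPM in hel2Δ, against 346, 251 and 275 CPM in wild type, so that it was high in ncs2Δelp6Δ alone. The interactions were −1.32 for PHO4 (adjusted p = 0.177), 1.69 for PHO5 (adjusted p = 0.304) and 1.07 for VTC1 (adjusted p = 0.310). The list's median was 0.22, with 0.38 without replicate 2 and 0.039 without replicate 3 of ncs2Δelp6Δhel2Δ. Nitrogen regulation and ammonium assimilation resembled it, with 2 of 18 genes lower in ncs2Δelp6Δhel2Δ than in hel2Δ and 7 lower in ncs2Δelp6Δ than in wild type, medians of −0.35 and −0.48, and a departure of the mean level of 0.24 ± 0.09 (standard error), but its median interaction of 0.25 was −0.025 without replicate 3 of hel2Δ.

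Proteasome genes moved by about as much upon loss of U34 modification in cells without HEL2 as in cells with it. The 37 proteasome genes had a median log2 effect of 1.00 without HEL2 and 0.96 with HEL2, and 14 and 16 of them rose (6.42% and 13.4% of all genes). Their mean log2 CPM was 7.17 ± 0.11 in ncs2Δelp6Δhel2Δ and 7.29 ± 0.24 in ncs2Δelp6Δ, against 6.50 ± 0.19 in hel2Δ and 6.57 ± 0.08 in wild type (SD, n = 3 each), and the departure from the sum was −0.05 ± 0.19 (standard error). The proteasome subunit genes SCL1 and RPN2 lay below the sum by −1.58 and −0.82 (adjusted p = 0.331 and 0.497). The assembly chaperone gene POC4 lay above it by 1.80 (adjusted p = 0.177), with 1043, 499.6 and 1465 CPM in ncs2Δelp6Δhel2Δ, 238, 279 and 381 CPM in ncs2Δelp6Δ and 3489, 2808 and 2482 CPM in hel2Δ, against 2234, 3766 and 3276 CPM in wild type. POC4 thus fell where the subunit genes rose, and its fall was −1.56 without HEL2 (adjusted p = 0.00141) and −3.37 with HEL2 (adjusted p = 9.69e-08).

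Genes of cytosolic ribosomal proteins had a median interaction of −0.22 over 122 genes, of which 34 were above 0, against 56.5% of all genes tested. Their mean log2 CPM was 7.40 ± 0.19 in ncs2Δelp6Δhel2Δ, 7.75 ± 0.38 in ncs2Δelp6Δ and 6.96 ± 0.22 in hel2Δ, against 7.17 ± 0.31 in wild type (SD, n = 3 each). Replicate 2 of ncs2Δelp6Δ stood at 8.16, above every other library, and without it the median interaction was 0.01. The departure of the mean level, −0.14 ± 0.33 (standard error), was within its error. RPL11A had an interaction of −0.82 and RPL9A of −1.38 (adjusted p = 0.482 and 0.426), while RPL29 was 0.85 (adjusted p = 0.367). Reads of duplicated ribosomal protein genes can be split between copies by unique mapping, and values of single copies are uncertain. Ribosome biogenesis, chaperones, translation factors and aminoacyl-tRNA synthetases had medians of 0.09, −0.07, −0.04 and 0.01, beside 0.08 for all genes.

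The ergosterol and mevalonate pathway had a small departure that kept its sign, with a median of −0.22 over 23 genes (−0.35 to −0.13 without 1 library). ERG11, lanosterol demethylase, had 302, 331 and 278 CPM in ncs2Δelp6Δhel2Δ, 457, 526 and 469.97 CPM in ncs2Δelp6Δ and 385, 351 and 327 CPM in hel2Δ, against 377, 357 and 282 CPM in wild type. ERG11 was thus high in ncs2Δelp6Δ alone, where it rose over wild type (log2 0.51, adjusted p = 0.0477), and its interaction was −0.72 (adjusted p = 0.336). ERG25 lay below the sum by −1.004 (adjusted p = 0.426) and ERG26 above it by 1.07 (adjusted p = 0.424). ERG26 fell upon U34 modification loss by −1.80 without HEL2 (adjusted p = 0.000575) and −2.87 with HEL2 (adjusted p = 7.48e-07). The departure of the list's mean level, −0.14 ± 0.09 (standard error), was small against its error.

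The lists that the study had drawn up were additive at the level of their medians. The 86 tested RQC targets and 165 tested RQC-refractory transcripts, which the study chose on ribosome data of these same strains and which are therefore no independent evidence, had medians of −0.02 and −0.06. Loss of U34 modification moved the RQC targets by 0.34 without HEL2 and 0.39 with HEL2. The medians were 0.01 for 498 genes of aggregation-prone proteins and 0.08 for 262 genes of proteins that did not aggregate. The median of all genes was 0.08. The RQC factor genes had a median of −0.06 over 15 genes, with 7 above 0 and 8 below, where 56.5% of all genes tested were above 0. The collision sensor gene MBF1 had an interaction of −0.88 (unadjusted p = 0.0128, adjusted p = 0.304). In contrast, YKR023W and NPL4 of the same list lay above the sum by 1.26 and 0.98 (adjusted p = 0.443 and 0.513, edgeR).

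Outside the lists, the genes with the lowest p above additivity were OPT2, an oligopeptide transporter, and GET4, a factor that delivers tail-anchored proteins. OPT2 had 409, 189.7 and 568 CPM in ncs2Δelp6Δhel2Δ, 92.2, 84.3 and 144 CPM in ncs2Δelp6Δ and 733, 943 and 628 CPM in hel2Δ, against 666, 945 and 958 CPM in wild type. GET4 had 107, 149.7 and 175 CPM in ncs2Δelp6Δhel2Δ, 53.8, 63.9 and 54.4 CPM in ncs2Δelp6Δ and 227, 186 and 111 CPM in hel2Δ, against 215, 211 and 268 CPM in wild type. In both genes the triple mutant was above every ncs2Δelp6Δ library and below every wild-type library. The interactions were 1.997 for OPT2 and 1.78 for GET4 (adjusted p = 0.156 for each), with values of 1.48 to 2.41 and 1.41 to 2.08 without 1 library. The genes MTC7, GEP3, BIT2, MIP6 and AMF1, also among the 10 with the lowest p, lay between 1.36 and 2.12 and had the same adjusted p of 0.177, and their log2 fold changes in ncs2Δelp6Δ over wild type lay between −3.15 and −2.37. Below additivity, the genes outside the pathway lists among the 10 with the lowest p were TMA108, PRY2, TDA7, UBC4 and RCL1, with interactions between −1.08 and −0.93 and adjusted p between 0.177 and 0.304. UBC4, a ubiquitin-conjugating enzyme, and RCL1, a factor of ribosomal RNA processing, had effects of U34 modification loss of 0.47 and 0.37 without HEL2 (adjusted p = 0.204 and 0.408), against rises of 1.43 and 1.45 with HEL2 (adjusted p = 4.88e-05 and 0.000228). TMA108 differed from them, with a fall of −0.99 without HEL2 (adjusted p = 0.00664) and 0.09 with HEL2 (adjusted p = 0.780).

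The number of genes called for the interaction rested on a single library. With any other of the 12 libraries omitted, which gave 11 fits, LYS2 was the 1 gene called. Without replicate 2 of ncs2Δelp6Δhel2Δ, 111 of the 3449 genes tested in that fit were called, 107 of them above additivity and 4 below. Of these 111 genes, 110 had an unadjusted p under 0.05 with all libraries, against 9.71% of all genes. Both fits share every other library, so this overlap is no independent evidence. A pathway list held 22 of the 111 genes. Whether that share differs from the share among all genes tested was not tested. The 111 genes included HIS4, ARG8, LEU9, ARO3, TAT2, PGM1, HXT1, VTC1, PHO5 and POC4, and, below additivity, LYS2 and PHO4. At most 3 genes of any pathway list were among them, the 3 being PHO4, PHO5 and VTC1. TAT2, a high-affinity tryptophan permease, illustrates the library's place with 1043, 605 and 1388 CPM in replicates 1, 2 and 3 of ncs2Δelp6Δhel2Δ and 254, 517 and 509 CPM in ncs2Δelp6Δ, against 2235, 1875 and 1638 CPM in hel2Δ and 1770, 2054 and 2733 CPM in wild type. Its interaction was 1.41 with all libraries (adjusted p = 0.177).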

How the data were processed

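Reads were from 5PSeq of total RNA with unique molecular identifiers. The authors deposited 1 table of whole-number counts per gene for the 12 libraries, and every column of it was used (0 columns left out). Per the submitters' processing notes, cutadapt, STAR 2.5.3a, Bowtie 1.2.3, UMI-tools and the sacCer3 build were involved. Unique mapping and deduplication affect duplicated genes and highly covered positions. Gene names came from RefSeq assembly R64, which matched 5772 genes.

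Counts of the 12 libraries were fitted together in edgeR 4.0.16 (R 4.3.3, limma 3.58.1) with 1 coefficient per strain, after TMM scaling and edgeR's filter with a minimum count of 10. The quasi-likelihood test was two-sided, and p-values were adjusted by Benjamini-Hochberg over all genes tested, with a threshold of 0.05. The mean log2 CPM of gene sets used a prior count of 2, and fold changes used edgeR's default prior count. The level of a list was the mean log2 CPM of its tested members, and its standard error came from the spread of libraries within strains. RNA-seq was not used here, so the study's DESeq2 design that combines both assays was not taken over. The code was tested on simulated data.

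Totals of 104202 to 415323 reads per library mean that 3 reads, the most that a count of 0 allows, are 0.000722% to 0.00288% of a library. Such limits cover counting error only. Members and lists were chosen with earlier results of these data known. Genes were named if called for the interaction, if among the 10 with the lowest p in each direction with a mean of at least 20 counts, if among the 3 members with the lowest p of a list described, or if deleted or a marker. Others are marked as chosen after their values were seen, and 1 gene that the rule would name is not reported here. The alternatives tried were upper-quartile and total scaling, other filters for low counts, thinning to the smallest total, a covariate for the main variation between libraries of the same strain (the first singular vector of deviations from the strain means), a replicate block, DESeq2 1.42.0, leaving out each library, and means, summed CPM or the linear scale for lists. Leaving out the member with the lowest p and DESeq2 without independent filtering were added after seeing the data. Promoters were not analysed here.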

Additional observations from a re-analysis of the deposited data

Results flagged for a closer look

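For LYS2, the difference between strains without and with HEL2 was not the same in the 2 backgrounds, in the test of the difference itself. Few LYS2 reads were left in the triple mutant libraries, and whether that strain carries an altered LYS2 was not tested. The interaction was −4.18, with a log2 fold change of −3.82 in cells without U34 modification and 0.36 in cells with it.

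In 3 gene lists every library moved one way upon deletion of HEL2 in cells without U34 modification and the other way in cells with it. These differences were not tested. Lysine synthesis (departure of the mean level −0.85) was lower in ncs2Δelp6Δhel2Δ than the ncs2Δelp6Δ mean by differences of −0.42, −0.73 and −0.35, and higher in hel2Δ than the wild-type mean by 0.43, 0.15 and 0.47 (log2 CPM). For the lysine list this held only with LYS2 included. Without LYS2, the ncs2Δelp6Δhel2Δ libraries stood at 7.08, 6.92 and 7.23, and replicate 3 was not below the ncs2Δelp6Δ mean of 7.22. Hexose transporters and glucose sensors (0.47) had differences of 0.36, 0.11 and 0.25 in ncs2Δelp6Δhel2Δ, against −0.17, −0.30 and −0.23 in hel2Δ. Amino acid permeases (0.21) had 0.20, 0.17 and 0.19 in ncs2Δelp6Δhel2Δ, against −0.05, −0.01 and 0.00 in hel2Δ, where the movement was close to 0.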

How the results depend on the processing

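The number of genes called for the interaction was 26 with no filter for low counts, 0 with at least 10 reads in every library (edgeR, with 176 genes at an unadjusted p under 0.05, and LYS2 not tested), 54 with a covariate for the main variation between libraries of the same strain, itself taken from these counts, and 2 with DESeq2, where POC4 and OPT2 were called and LYS2 was removed by independent filtering. DESeq2 without that filtering called LYS2 alone. Without 1 library it was between 1 and 111. In the strain comparisons, the counts without 1 library were 1 to 3 for hel2Δ over wild type, 35 to 389 for ncs2Δelp6Δhel2Δ over ncs2Δelp6Δ, 122 to 649 for ncs2Δelp6Δhel2Δ over hel2Δ, and 137 to 504 for ncs2Δelp6Δhel2Δ over wild type (374 with all). Between libraries of the same replicate number, 2 of 18 correlations of deviations were over 0.1 (−0.22 to 0.27). Both were between ncs2Δelp6Δhel2Δ and ncs2Δelp6Δ, with 0.27 for replicate 2 and 0.22 for replicate 3, beside 0.085 for replicate 1. Libraries of unlike number were not compared, so whether the numbers pair the libraries was not tested. A replicate block left 1 call for the interaction, LYS2.

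Among 428 medians under other settings, 398 moved by less than 2 times the SD of the list's mean level between libraries of the same strain, pooled over strains. With at least 10 reads in every library, the medians were 0.025 for lysine synthesis, −0.34 for arginine synthesis, 0.048 for hexose transporters, 0.48 for phosphate, 0.079 for nitrogen regulation, −0.54 for RQC factors, 0.28 for iron uptake, 0.53 for the respiratory chain and 0.45 for mitochondrial ribosomal proteins. With libraries thinned to the smallest total they were −0.51 for lysine, 0.20 for leucine, 0.18 for hexose transporters, 0.34 for iron uptake, −0.21 for U34 modification factors, 0.54 for the respiratory chain, 0.38 for aromatic synthesis, 0.36 for the citric acid cycle and 0.40 for regulators of general amino acid control. From summed CPM they were −0.40 for RQC factors, 0.24 for the respiratory chain, −0.093 for sulfate assimilation, 0.34 for aromatic synthesis, 0.46 for phosphate and −0.050 for nitrogen regulation. On the linear scale they were 0.25 for the respiratory chain, −0.068 for nitrogen regulation and 0.49 for histidine synthesis. With no filter they were 0.064 for nitrogen regulation and 0.33 for histidine synthesis, and the mean for iron uptake was 0.14. The cause was not tested. Without 1 library, the medians ran from −1.23 to −0.52 for lysine, −0.33 to 0.21 for leucine, −0.0080 to 0.20 for iron uptake, 0.075 to 0.33 for the respiratory chain, −0.016 to 0.25 for sulfate assimilation, −0.029 to 0.18 for fatty acid synthesis, 0.039 to 0.38 for phosphate and −0.025 to 0.34 for nitrogen regulation. Of the named genes, SAM3 turned to −0.016 without replicate 1 of wild type, with values up to 1.30 without replicate 2 of ncs2Δelp6Δ. Depth limits lists of few or weakly covered genes most, since the median gene tested had 24.8 reads per library.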

Other observations

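Genes of the mitochondrial genome, which encode respiratory chain subunits and intron proteins, were examined after their values were seen. All 11 that passed the filter, of 18 in the table, lay above additivity, against 56.5% of all genes tested. Their median interaction was 0.70 (0.30 to 2.31). An unadjusted p under 0.05 in edgeR was found for 5 of them, against 7.67% of all genes with such a p and a value above 0. Their median log2 effect of U34 modification loss was −0.01 without HEL2 and −0.93 with HEL2, and 0 and 6 of them were called lower, against 8.14% and 16.7% of all genes. The mean log2 CPM was 6.81, 6.95 and 7.15 in ncs2Δelp6Δhel2Δ, 6.39, 6.70 and 6.97 in ncs2Δelp6Δ and 7.42, 6.35 and 6.69 in hel2Δ, against 8.09, 7.14 and 7.32 in wild type. Replicate 1 was the highest in wild type, and without it the median was 0.25. Several of these genes are intron frames within COX1 and COB, so their reads are not independent.

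Genes of different length had small median interactions, but fewer long than short genes lay below additivity at an unadjusted p under 0.05 (edgeR). From the shortest to the longest group, 27, 21, 12 and 8 genes lay below at that p, and 57, 61, 68 and 67 above. The cause was not tested. In these 4 groups, of about equal size, the median interactions were 0.02, 0.03, 0.11 and 0.11. The median effect of U34 modification loss was 0.28, 0.11, 0.02 and −0.11 without HEL2 and 0.38, 0.13, 0.00 and −0.17 with HEL2.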
